A study of Cavia porcellus with 34 samples.

Results

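Gonadal steroid receptors, the prolactin receptor and 2 steroid-converting enzymes, 6 genes in all, were followed in the paraventricular nucleus (PVN), and their rows were taken by gene symbol from each generation's table. They are the receptors ESR1, ESR2, PGR and PRLR and the enzymes CYP19A1 and SRD5A1. All 6 were present and passed the filter on low values in every generation, among 11874 genes tested in F1, 11965 in F2 and 11866 in F3. RNA came from hypothalamic punches taken at postnatal day 40 from 32 females, juvenile Dunkin-Hartley guinea pigs. Those of F2 and F3 belonged to the paternal line. Pregnant F0 females had received repeated courses of the synthetic glucocorticoid betamethasone (sGC) or vehicle (Veh), and F2 and F3 were bred by mating F1 and F2 males with untreated females. F1 animals were therefore exposed in utero, whereas F2 and F3 animals descended from exposed or vehicle males. Each group held 5 animals in F1 and in F2 and 6 in F3, and the study's methods count independent litters. The punch held the whole PVN and may have held adjacent hypothalamus. The stage of the ovarian cycle is not given in the sources used here.

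Sex steroids reach the hypothalamus from the ovary and are also converted there. ESR1 and ESR2 encode estrogen receptors alpha and beta, nuclear receptors that regulate transcription once they bind estradiol. In the rodent PVN, estrogen receptor beta is the better known form, and estrogen receptor alpha is prominent in neighbouring medial hypothalamic nuclei. PGR encodes the nuclear progesterone receptor and is a classical estrogen-induced gene. PRLR encodes the prolactin receptor, a cytokine receptor that signals through JAK2 and STAT5. CYP19A1 encodes aromatase, which turns androgens into estrogens, and SRD5A1 encodes 5-alpha reductase type 1, which reduces testosterone and progesterone toward dihydrotestosterone and neuroactive progesterone metabolites.

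The values are the authors' normalized counts, divided here by a size factor per sample, and are called scaled counts. Sample totals ran from 15.57 to 21.94 M in F1, from 15.65 to 19.44 M in F2 and from 18.69 to 18.98 M in F3. Fold changes are on the log2(scaled count + 1) scale with their standard error (SE), and adjusted p-values come from limma with Benjamini-Hochberg adjustment over all genes of a table. The tables were normalized separately, so every test compares sGC with Veh within one generation. Transcript lengths were not used, so levels are not compared between genes. The PVN markers SIM1, OTP, CRH, TRH, AVP and OXT were present in every generation. The pituitary hormone genes PRL, GH1, CGA, LHB and FSHB had no row in any table.

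PRLR was the gene of the 6 that passed the test, and it did so in F1 alone. In F1 Veh animals PRLR stood at 26.7, 27.6, 38.2, 41.2 and 60.7 scaled counts. In F1 sGC animals it stood at 55.6, 56.9, 58.4, 91.4 and 98.5. The groups overlapped through the Veh animal SGM7 at 60.7, and the other 4 Veh animals lay below every sGC animal. The mean was 38.9 ± 13.8 (SD, n = 5) in Veh and 72.2 ± 21.0 (SD, n = 5) in sGC. PRLR rose by 0.89 on the log2 scale (SE 0.25, 95% interval 0.33 to 1.45, limma, adjusted p = 0.0356). An exact two-sided permutation test of PRLR by itself gave p = 0.0317, unadjusted, where 0.00794 is the smallest p that 5 against 5 allows. Thus 1 of the 6 genes passed in F1, where 17.3% of all genes tested passed, 8.47% higher and 8.86% lower in sGC, so this share of the members is close to that background.

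The call of PRLR did not hold under every setting. With the deposited values left unscaled, the log2 fold change was 0.95 and the adjusted p 0.11, and 0.657% of all genes tested passed. Quantile normalization gave 0.78 with an adjusted p of 0.0714. One direction of the F1 values held almost no variation within groups and was read as removed by the authors' residual normalization. With this removed direction as a covariate the adjusted p was 0.0588, and unscaled with that covariate it was 0.131. Leaving out one animal at a time kept the log2 fold change between 0.77 and 1.07. The adjusted p then ran from 0.02, without Veh SGM7, to 0.0813, without Veh SGM3, and 6 of the 10 omissions lost the call. Those were Veh SGM3, SGM11, SGM15 and SGM19 and sGC SGM12 and SGM16. The direction was the same in all of these fits.

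**Figure D1:**
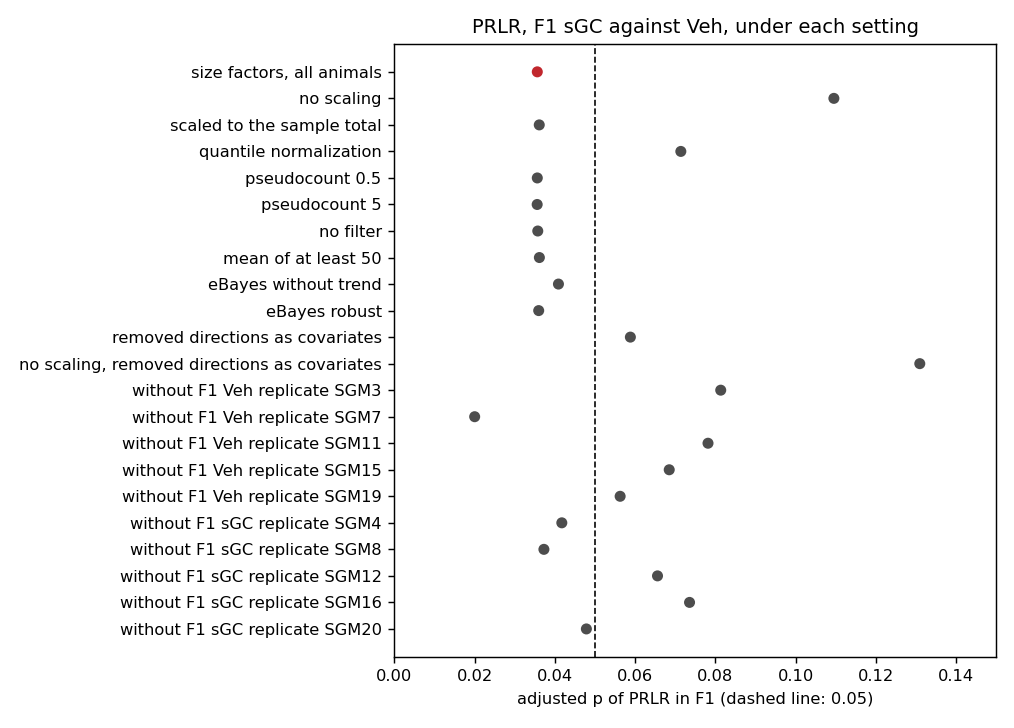
Adjusted p of PRLR for F1 sGC against Veh (x axis) under each scaling, pseudocount, filter, fit and left-out animal (y axis), with the setting used in the text in red and a dashed line at 0.05. The values run from 0.02, without Veh SGM7, to 0.131, unscaled with the removed direction as a covariate.

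Markers of the PVN, of neighbouring regions and of other cells were set beside the PRLR result in F1. The summed level of 10 PVN markers was 127500 to 242900 scaled counts in F1 Veh and 37530 to 197900 in F1 sGC, and 9 of the 10 had a negative fold change. TRH, the thyrotropin-releasing hormone gene, passed with a fall of 1.00 (limma, adjusted p = 0.0398). The thalamic gene TCF7L2 stood at 6310 in Veh SGM15 and at 616, 659, 1110 and 1220 in the other F1 Veh animals. In F1 sGC animals TCF7L2 was mostly lower, from 339 to 620. GBX2, another thalamic gene, ran from 13 to 832 in F1 Veh, highest in SGM15, and from 0.957 to 49.5 in F1 sGC. Of 17 markers of neighbouring hypothalamus and thalamus, 14 had a positive fold change, with a median of 0.25, and none passed. That list holds both regions together, and its thalamic genes TCF7L2 and GBX2 went the other way. Their summed level was 8320 to 14510 in F1 Veh (median 10130) and 5590 to 24530 in F1 sGC (median 18620). NR5A1, a gene of the ventromedial hypothalamus, stood at 3.48 to 104 in Veh and 56.0 to 293 in sGC, and its difference of 1.95 on the log2 scale did not pass (limma, adjusted p = 0.0915). Within the F1 groups PRLR had r = 0.472 with NR5A1, -0.636 with GBX2, -0.417 with TCF7L2 and -0.673 with MOBP. With the PVN markers SIM1 and TRH it had r = 0.47 and 0.415. TTR, a transport protein gene strong in choroid plexus, stood at 318 in sGC SGM4 and 542 in sGC SGM20, and at 54.1 or less elsewhere. The choroid plexus genes KCNJ13, AQP1, KCNE2 and CLDN2 had no row. Of 6 choroid plexus markers tested in F1, 3 had a positive fold change and 3 a negative one. Their median was -0.02, and none passed. Positive fold changes in F1 were held by 9 of 9 oligodendrocyte, 6 of 6 endothelial and leptomeningeal and 6 of 8 astrocyte markers. The same was true of 5 of 8 neuron, 4 of 6 microglia and 3 of 9 ependyma and tanycyte markers. From these lists, 1 microglia marker passed as higher and 1 neuron marker as lower, beside 17.3% of all genes. Without SGM4 the PRLR fold change was 0.98 (limma, adjusted p = 0.0417), without SGM20 it was 0.96 (limma, adjusted p = 0.0478), and without SGM15 it was 0.78 (limma, adjusted p = 0.0685). In a punch, fewer cells of a type and less RNA per cell cannot be told apart, and the part of these markers in the PRLR difference was not tested.

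In F2 and F3 the prolactin receptor gave no call. F2 Veh animals held 12.1, 15.9, 19.7, 22.4 and 23.5 scaled counts of PRLR, and F2 sGC animals 12.8, 17.4, 18.2, 18.7 and 37.3. The F2 log2 fold change was 0.10 (SE 0.28, limma, adjusted p = 0.935), and without sGC SGM21, the animal at 37.3, it was -0.13. In F3, PRLR ran from 45.0 to 113 with a median of 74.0 in Veh and from 66.2 to 125 with a median of 89.5 in sGC. The F3 log2 fold change was 0.28 (SE 0.20, limma, adjusted p = 0.597). A second F3 sequencing batch held 2 sGC animals beside libraries of Veh animals sequenced again. Within the first batch the F3 value was 0.44 (limma, adjusted p = 0.551), and with batch as a covariate it was 0.44 (limma, adjusted p = 0.523). The covariate marks only those 2 sGC animals, so by design both fits give nearly the same estimate and are not separate checks. The PRLR fold change differed by 0.80 between F1 and F2 (limma, adjusted p = 0.15) and by 0.61 between F1 and F3 (limma, adjusted p = 0.249). Neither difference passed, so a change particular to F1 was not shown.

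**Figure D2:**
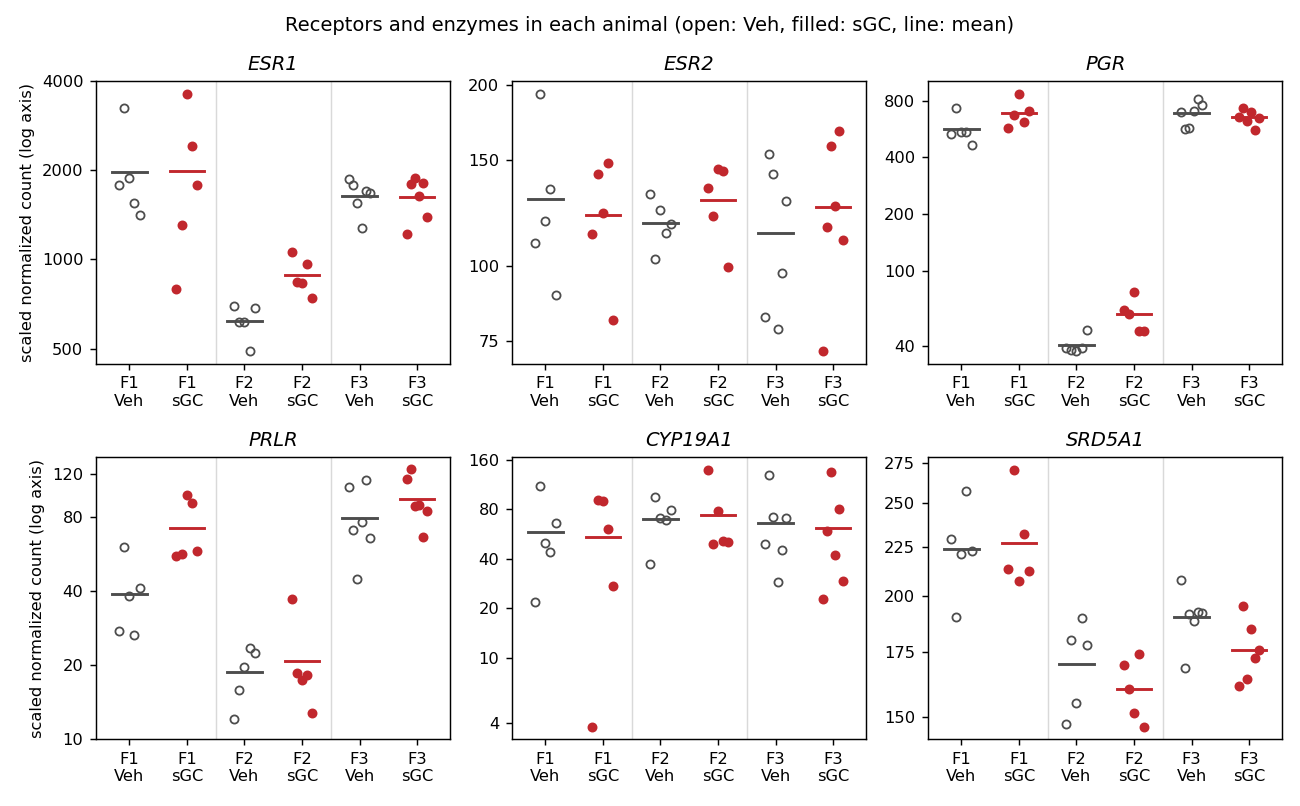
Scaled normalized counts (y axes, log scale) of the 6 genes in each Veh (open) and sGC (filled) animal of F1, F2 and F3 (x axes), with a line at each group mean. PRLR in F1 sGC animals lies between 55.6 and 98.5, above 4 of the 5 Veh animals, and PGR in F2 lies between 37.6 and 77.2 against 468 to 870 in F1.

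ESR1, the gene of estrogen receptor alpha, separated the groups in F2 without passing the adjusted threshold. F2 Veh animals held 491, 613, 613, 687 and 695 scaled counts. F2 sGC animals held 740, 832, 840, 967 and 1061. Every F2 sGC animal lay above every Veh animal. Groups did not overlap for 3.21% of all genes tested in F2, against 1 of these 6 genes. The mean was 619.7 ± 81.7 (SD, n = 5) in Veh and 888.3 ± 125.9 (SD, n = 5) in sGC. The log2 fold change was 0.52 (SE 0.11, 95% interval 0.27 to 0.77, limma, adjusted p = 0.108). An exact two-sided permutation test of ESR1 alone gave p = 0.00794, unadjusted and the smallest the design allows. Unscaled, the groups overlapped, since Veh SGM22 at 749 lay above sGC SGM25 at 692, and that permutation p was 0.0238.

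No gene of F2 passed the adjusted threshold, so 0% was called, while 1535 of the genes tested had an unadjusted p under 0.05. Without each animal in turn, the ESR1 value stayed between 0.44 and 0.58 (limma, adjusted p 0.0653 to 0.251). Cell type markers stood apart between the F2 groups as well. All 10 oligodendrocyte markers were lower in F2 sGC at an unadjusted p under 0.05 and none passed after adjustment. Their summed level was 138100 to 259800 scaled counts in Veh and 81100 to 115500 in sGC. Of 10 PVN markers, 9 had a positive fold change in F2, with a summed level of 73110 to 132400 in Veh and 101300 to 224100 in sGC. The summed level of 9 ependyma and tanycyte markers did not overlap, with 6868 to 7588 in Veh and 7700 to 9386 in sGC, and 8 of the 9 had a positive fold change. Within the F2 groups, over 10 animals, ESR1 had r = -0.722 with the thalamic gene TCF7L2 and -0.542 with GBX2, another thalamic gene. It had r = -0.187 with the oligodendrocyte gene MOBP and 0.0196 with the PVN gene SIM1. The part of these markers in the ESR1 difference was not tested.

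In F1, ESR1 varied more between animals than between groups. Veh animals held 1409, 1556, 1777, 1879 and 3242 scaled counts, and sGC animals 794, 1303, 1782, 2420 and 3610. The highest and the lowest animal were both sGC, and the sGC values spanned 4.55-fold. The F1 log2 fold change was -0.11 (SE 0.36, 95% interval -0.91 to 0.69, limma, adjusted p = 0.863), and its sign turned without Veh SGM7 (0.08) or without sGC SGM4 (0.17). In F3, ESR1 ran from 1279 to 1866 with a median of 1688 in Veh and from 1217 to 1879 with a median of 1717 in sGC. The F3 log2 fold change was -0.03 (SE 0.11, 95% interval -0.26 to 0.21, limma, adjusted p = 0.952). The ESR1 fold change differed by 0.54 between F2 and F3 (limma, adjusted p = 0.467) and by -0.63 between F1 and F2 (limma, adjusted p = 0.223), and neither passed.

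ESR2, the gene of estrogen receptor beta, gave no call in any generation. F1 Veh animals held 89.5, 109, 119, 134 and 193 scaled counts, and F1 sGC animals 81.5, 113, 122, 142 and 149. F2 Veh animals held 103, 113, 118, 124 and 132, and F2 sGC animals 99.5, 121, 135, 144 and 145. In F3 it ran from 78.8 to 154 with a median of 113 in Veh and from 72.4 to 167 with a median of 121 in sGC. The groups overlapped in each generation. The log2 fold changes were -0.07 in F1, 0.12 in F2 and 0.13 in F3 (limma, adjusted p 0.857, 0.769 and 0.835). Their 95% intervals were -0.54 to 0.40, -0.14 to 0.38 and -0.31 to 0.58, so a change of 1 log2 unit lies outside all of them.

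PGR, the progesterone receptor gene, had a positive fold change in F1 and in F2, and neither passed. F1 Veh animals held 468, 535, 543, 548 and 731 scaled counts, and F1 sGC animals 573, 619, 676, 706 and 870. Every F1 sGC animal lay above the Veh mean of 565.0 ± 98.4 (SD, n = 5), and the groups overlapped through Veh SGM7 at 731. The F1 log2 fold change was 0.29 (SE 0.13, limma, adjusted p = 0.151). F2 Veh animals held 37.6, 38.2, 38.8, 39.0 and 48.5, and F2 sGC animals 47.9, 48.1, 59.1, 61.9 and 77.2. Here too every sGC animal lay above the Veh mean, 40.4 ± 4.56 (SD, n = 5), and the overlap came from Veh SGM29 at 48.5. The F2 log2 fold change was 0.52 (SE 0.15, 95% interval 0.18 to 0.85, limma, adjusted p = 0.202). The exact two-sided permutation p of PGR alone was 0.0238 in F2 and 0.0873 in F1, unadjusted, and 0.0556 in F2 without scaling. Within the F2 groups, PGR had r = 0.788 with NR5A1 and r = -0.844 with SIM1 over 10 animals, and -0.268 with the PVN gene TRH. With NR5A1 and SIM1 it had -0.145 and 0.34 in F1, and 0.673 and -0.669 in F3. NR5A1 stood at 9.33 in Veh SGM29 and between 6.87 and 7.87 in sGC SGM21, SGM26 and SGM30, and at 3.71 or less in the other F2 animals. The part of these markers in the PGR difference was not tested.

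In F3, PGR ran from 568.3 to 815 with a median of 697 in Veh and from 558 to 736 with a median of 651 in sGC. The F3 log2 fold change was -0.06 (SE 0.09, 95% interval -0.25 to 0.13, limma, adjusted p = 0.816). The PGR fold change was 0.58 higher in F2 than in F3 (limma, adjusted p = 0.126). It was 0.35 higher in F1 than in F3 (limma, adjusted p = 0.164). Of all genes tested jointly, 0.157% differed in fold change between F2 and F3, 14.3% between F1 and F2 and 17.6% between F1 and F3. None of the 6 genes was among them in any of the 3 comparisons.

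**Figure D3:**
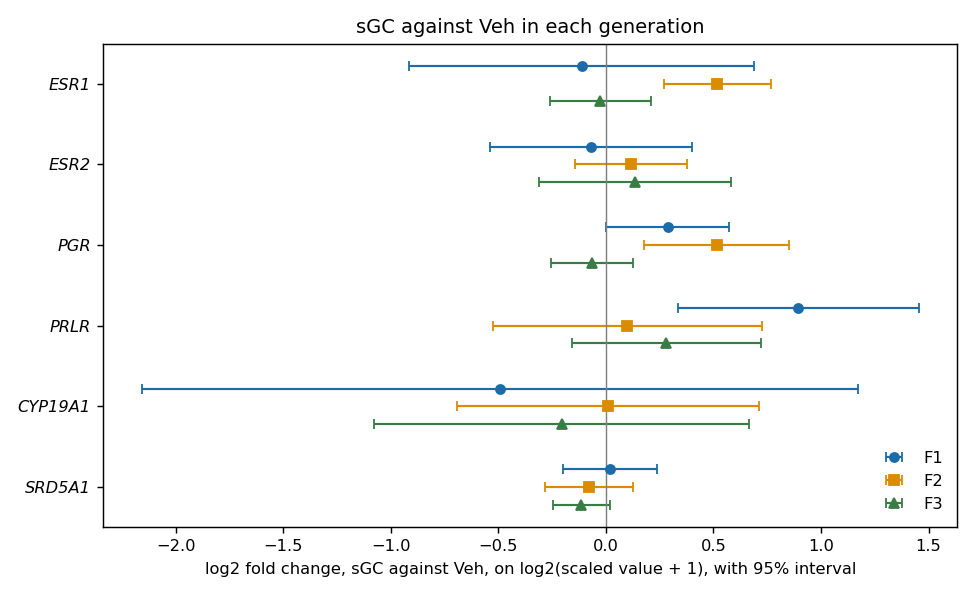
Log2 fold change of sGC against Veh (x axis, on log2(scaled count + 1)) with 95% intervals for the 6 genes (y axis) in F1 (circles), F2 (squares) and F3 (triangles). The interval of PRLR in F1 runs from 0.33 to 1.45 and those of ESR1 and PGR in F2 start at 0.27 and 0.18, whereas that of CYP19A1 in F1 is the widest, from -2.16 to 1.17.

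The level of PGR in the F2 table stood apart from those in the other generations, in both groups. Its mean over all animals was 12.6-fold higher in F1 and 13.5-fold higher in F3 than in F2, with no overlap of single animals. Only 0.569% of 11429 genes present in all tables differed as far between F1 and F2, and 0.297% between F3 and F2. PRLR was also lower in F2, with ratios of 2.8 for F1 and 4.41 for F3, which 2.75% and 1.23% of genes reached or passed. ESR1 had ratios of 2.62 and 2.16, reached by 2.97% and 4.49% of genes. ESR2 hardly moved, with ratios of 1.02 and 0.969. Since the 3 tables were normalized separately, generation and table cannot be told apart, and these ratios carry no test. NR5A1 stood lower in the F2 table too, at 0 to 9.33, beside 3.48 to 293 in F1 and 25.1 to 368 in F3. Whether F2 reads were counted with the same gene annotation as the others is not given in the sources used here. Between F1 and F3 the PGR ratio was 0.937.

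**Figure D4:**
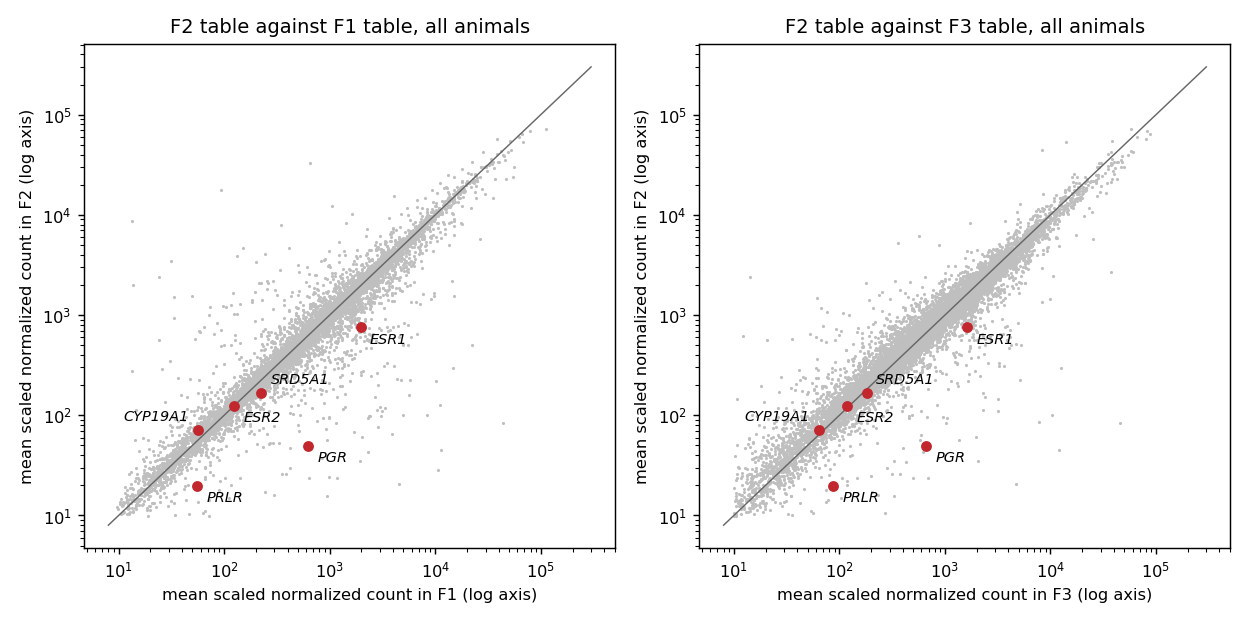
Mean scaled normalized count over all animals of F2 (y axes, log scale) against F1 (left) and F3 (right; x axes, log scale) for 11429 genes (grey), with the line of equality and the 6 genes in red. PGR lies 12.6-fold and 13.5-fold off the line, PRLR and ESR1 also lie below it, and ESR2, CYP19A1 and SRD5A1 lie within 1.37-fold of it.

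CYP19A1, the aromatase gene, had the largest coefficient of variation of the 6 genes in each of the 6 groups. F1 Veh animals held 21.9, 44.03, 49.6, 66.0 and 112 scaled counts, and F1 sGC animals 3.83, 27.5, 60.9, 89.9 and 90.5. The sGC animal SGM4, at 3.83, was also lowest in ESR1. The Veh animal SGM7, at 112, was highest of its group in ESR1, ESR2, PGR and PRLR as well, and lowest in SRD5A1. The coefficient of variation was 57.2% in F1 Veh and 70.3% in F1 sGC. The F1 log2 fold change was -0.49 (SE 0.76, 95% interval -2.16 to 1.17, limma, adjusted p = 0.694), and without SGM4 it was 0.24. That interval includes a change of 2-fold in either direction.

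F2 Veh animals held 37.1, 68.4, 70.4, 79.3 and 94.4 scaled counts of CYP19A1, and F2 sGC animals 49.2, 50.3, 51.3, 78.1 and 139. The F2 log2 fold change was 0.01 (SE 0.32, limma, adjusted p = 0.996), with a sign that turned under no scaling (-0.06) and quantile normalization (-0.04). In F3, CYP19A1 ran from 28.9 to 130 with a median of 60.3 in Veh and from 22.8 to 134 with a median of 50.6 in sGC. The F3 log2 fold change was -0.21 (SE 0.41, limma, adjusted p = 0.88). Groups overlapped in all 3 generations.

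SRD5A1, the 5-alpha reductase gene, had the smallest coefficient of variation of the 6 genes in every group except F2 Veh. Its coefficient of variation lay between 6.64% in F3 Veh and 11.4% in F1 sGC. F1 Veh animals held 191, 221, 223, 229 and 257 scaled counts, and F1 sGC animals 208, 213, 214, 232 and 271. F2 Veh animals held 147, 155, 178, 180 and 190, and F2 sGC animals 147, 151, 160, 170 and 174. In F3 it ran from 169 to 208 with a median of 192 in Veh and from 162 to 196 with a median of 174 in sGC, and 5 of the 6 sGC animals lay below the Veh mean. The log2 fold changes were 0.02, -0.08 and -0.11 in F1, F2 and F3 (limma, adjusted p 0.912, 0.806 and 0.453). The 95% intervals lay between -0.28 and 0.24, which places a change of 2-fold outside them. None of the 6 genes passed in F3, where 0.0421% of all genes did, and none had groups that did not overlap, against 1.26% of all genes. In F1 none of the 6 had groups without overlap either, against 14.2% of all genes.

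The other genes of the pathway were taken from lists of receptors, enzymes, coregulators, chaperones, signalling proteins and responsive genes. In F1, 6 of the 13 other sex steroid and membrane progestin receptors tested passed, 3 in each direction. Of all genes tested in F1, 17.3% passed, 8.47% higher and 8.86% lower in sGC. GPER1, the gene of the membrane estrogen receptor, rose by 0.43 (limma, adjusted p = 0.026). PGRMC1, a progesterone receptor membrane component, fell by 0.19 (limma, adjusted p = 0.0245), and the estrogen-related receptor gene ESRRA, whose protein does not bind estradiol, fell by 0.19 as well (limma, adjusted p = 0.0309). The median of the list in F1 was -0.03, beside 0.00 for all genes tested. With the removed direction as a covariate 2 of the 13 passed, unscaled 0, and with one animal left out from 0, without Veh SGM11, to 5.

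The steroid synthesis and conversion list gave 1 call, a lower one, among 13 genes tested in F1, where 17.3% of all genes passed. Unscaled or with the removed direction as a covariate it gave 0, and the call was lost without Veh SGM3, SGM11 or SGM19 or without sGC SGM4, SGM8, SGM12 or SGM16. HSD17B10, a mitochondrial hydroxysteroid dehydrogenase, gave log2 fold changes of -0.13, -0.03 and 0.09 in the 3 generations (limma, adjusted p 0.15, 0.831 and 0.258). HSD17B12, whose enzyme acts on estrone and on fatty acyl chains, had -0.05, -0.07 and -0.02 (limma, adjusted p 0.557, 0.584 and 0.863). SRD5A3, which serves N-glycosylation, had 0.08, -0.04 and -0.07 (limma, adjusted p 0.192, 0.844 and 0.572). CYP11A1, which starts steroid synthesis from cholesterol, and SRD5A2 had no row in any table. Of 38 genes of the list, 14 were in the F1 table and 18 each in those of F2 and F3.

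Of the coregulators of the steroid receptors, 10 of 22 tested passed in F1, with 9 higher and 1 lower in sGC. Over all genes tested in F1, 17.3% passed, with 8.47% higher and 8.86% lower. EP300, a histone acetyltransferase that serves many transcription factors, rose from 1049 ± 19.0 (SD, n = 5) to 1543 ± 40.3 (SD, n = 5) scaled counts, by 0.56 on the log2 scale (SE 0.03, limma, adjusted p = 4.42e-05). MED1, a Mediator subunit that contacts nuclear receptors, rose by 0.26 (limma, adjusted p = 0.00336), and the coactivator NCOA1 by 0.23 (limma, adjusted p = 0.00366). The list's median was 0.22, and 16 of its 22 genes were above 0. With the removed direction as a covariate 8 of the 22 passed, without one animal in turn from 7 to 11, and unscaled 1.

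Chaperones that hold the receptors ready for ligand went the other way in F1, with 5 of 15 lower and none higher. The shares over all genes tested were 8.86% lower and 8.47% higher. PPID, the cyclophilin 40 gene, fell by 0.21 (limma, adjusted p = 0.00938), and PTGES3, the p23 cochaperone gene, fell by 0.21 (limma, adjusted p = 0.018). AHSA1, an activator of the HSP90 ATPase, fell by 0.18 (limma, adjusted p = 0.0216), and DNAJA1, a J-domain cochaperone, fell by 0.22 (limma, adjusted p = 0.026). The median of the list was -0.12, with 14 of 15 genes below 0. With the removed direction as a covariate 5 passed, without Veh SGM11 only 1, and unscaled 0.

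**Figure D5:**
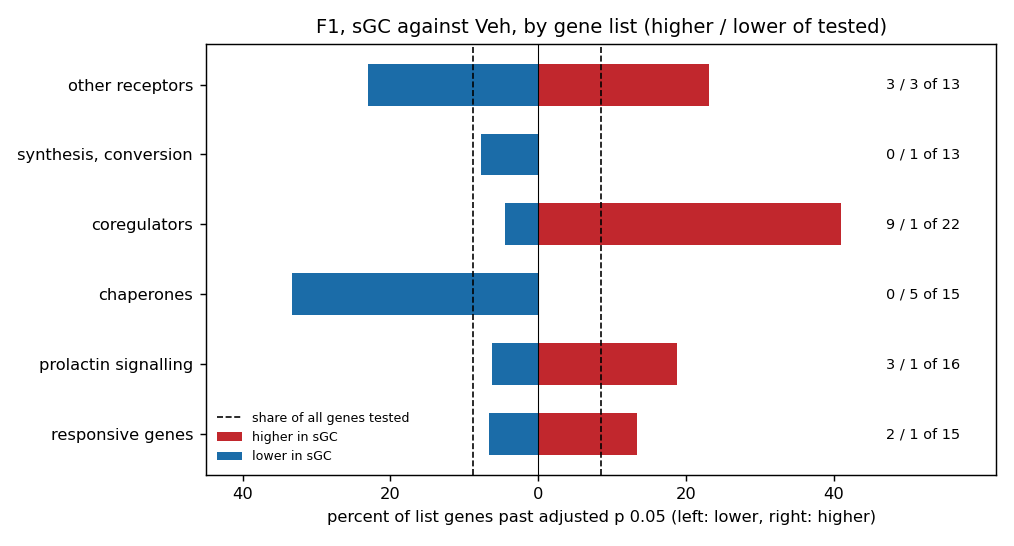
Share of the tested genes of each list (y axis) that passed the adjusted threshold in F1, in percent (x axis; right and red higher in sGC, left and blue lower), with counts at the right and dashed lines at 8.47% higher and 8.86% lower, the shares over all genes tested. Coregulators show 9 of 22 higher and chaperones 5 of 15 lower.

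Around PRLR itself, 4 of 16 prolactin signalling genes tested passed in F1, 3 higher and 1 lower, beside 17.3% of all genes. SOS1, an exchange factor of RAS, rose by 0.22 (limma, adjusted p = 0.00436), PTPN11, the SHP2 phosphatase gene, rose by 0.22 (limma, adjusted p = 0.00895), and PIAS1, an inhibitor of STAT proteins, rose by 0.18 (limma, adjusted p = 0.0274). STAT5A, STAT5B and CISH had no row in any table, so the main transcription factors of this receptor are not analysed here. With the removed direction as a covariate 2 of the 16 passed, and unscaled 0. Also 2 passed without Veh SGM7, SGM11 or SGM15 or without sGC SGM4 or SGM8.

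Genes known to respond to ovarian steroids or prolactin gave 3 calls of 15 tested in F1, beside 17.3% of all genes. GREB1, a classical estrogen-induced gene, rose from 258.6 ± 20.6 (SD, n = 5) to 348.6 ± 34.5 (SD, n = 5) scaled counts, by 0.43 on the log2 scale (SE 0.08, limma, adjusted p = 0.00842). IGF1R, the insulin-like growth factor 1 receptor gene, rose by 0.39 (limma, adjusted p = 0.00134). CCKAR, a cholecystokinin receptor gene, fell from 725.6 ± 164.5 (SD, n = 5) to 391.7 ± 73.6 (SD, n = 5), by 0.87 (SE 0.18, limma, adjusted p = 0.0103). The list's median in F1 was 0.00, and 8 of the 15 were above 0. With the removed direction as a covariate 3 passed, unscaled 1, and without sGC SGM16 5. In F2 and F3 no gene of any of the 6 lists passed, in any fit that left out an animal or added the removed directions.

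Across animals, members varied together in part. Correlations were taken on scaled log2 values centred on each group's mean, over 32 animals that share 3 tables, and are descriptions. ESR1 and CYP19A1 had r = 0.666, with 0.711 in F1, 0.241 in F2 and 0.796 in F3. ESR2 and CYP19A1 had r = 0.543 over all animals, with 0.421, 0.00838 and 0.878. PGR and PRLR had r = 0.529, with 0.573, 0.33 and 0.715. ESR1 and PRLR went together in F1 (0.769) and not in F3 (0.0344), and SRD5A1 and PRLR had opposite signs in F1 (-0.625) and F2 (0.624). SRD5A1 and PGR had -0.462 in F1 and 0.552 in F3. Other pairs turned negative in F3. ESR2 had -0.659 with PRLR and -0.527 with PGR there, beside 0.471 and 0.475 in F1. PGR and CYP19A1 had -0.472 in F3 and 0.57 in F1.

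The genes most like each member were found among the 10539 genes whose mean reached 50 in each table. NOL4, RGAG4 and POU2F2 followed PRLR with r = 0.858, 0.839 and 0.829, and NOL4 did so in each generation (0.846, 0.889 and 0.857). TLE4, ARHGAP36 and NRP2 followed ESR1 with 0.869, 0.849 and 0.847. ARHGAP36 was also the closest to CYP19A1 at 0.844, followed by LAMP5 at 0.801 and FAM65B at 0.774. TSPAN18, METAP1D and TRH followed ESR2 with 0.743, 0.723 and 0.719, and in F2 METAP1D had 0.0159 and TRH 0.181. CDK20, RPRM and ARHGEF40 followed PGR with 0.792, 0.706 and 0.667, and CDK20 had 0.344 in F3. SNRK, GRM5 and LRRC8B followed SRD5A1 with 0.718, 0.693 and 0.692, and SNRK had 0.227 in F3.

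Each marker list was searched for its strongest relation to a member. Among markers of neighbouring regions, LHX6 had r = 0.663 with CYP19A1. AIF1 of microglia had r = -0.701 with CYP19A1, GJA1 of astrocytes -0.673 with PRLR, and UGT8 of oligodendrocytes -0.647 with ESR1. UGT8 and ESR1 had -0.837 in F1 and 0.00131 in F3, and other pairs of an oligodendrocyte marker and a member were positive, such as MOBP with CYP19A1 in F3 (0.58) and with SRD5A1 in F1 (0.631). GJA1 kept its relation to PRLR in each generation (-0.695, -0.693 and -0.734). CRYM of tanycytes had -0.608 with ESR2, TEK of endothelium -0.584 with CYP19A1, and CLIC6 of choroid plexus -0.553 with SRD5A1. Those of TEK and CLIC6 turned to 0.199 and 0.534 in F3. The neuronal gene STMN2 had 0.52 with CYP19A1, and POMC, listed for the pituitary and also made in the arcuate nucleus, had 0.4 with PGR.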

How the data were processed

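PVN RNA of 32 female guinea pigs was analysed in 6 groups, as the labels give them. The authors aligned single-end reads of unstranded mRNA libraries to cavPor3 with TopHat2, counted them on genes with GenomicAlignments 1.6.3, removed outliers by Cook's distance and normalized by residuals with RUVSeq 1.4.0 in R 3.2.3, and corrected the F3 batches with ComBat. The deposited values are these normalized counts rounded to whole numbers and were treated as a score, not as reads, so no counting interval is given. Columns of the authors' edgeR comparison (fold change, likelihood ratio, p-value) were not used. Libraries of F3 Veh animals sequenced again were not used here.

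Values were divided by median-of-ratios size factors, because sample totals differed in F1 and F2. Genes with a mean of at least 10 were fitted per generation on log2(value + 1), a pseudocount of 1, with limma 3.58.1 (eBayes with trend) in R 4.3.3, with a threshold of 0.05 after Benjamini-Hochberg adjustment. Differences of fold changes were fitted jointly over 6 group means. The values held almost no variation within groups along 1 direction in F1, 1 in F2 and 2 in F3. These were read as removed by the residual normalization, so residual degrees of freedom are overstated, and an alternative counts them. F3 was also corrected for batch, and which step removed each direction was not tested. The unscaled fit with these directions as covariates, and the counts of list genes under each alternative, were chosen after seeing the data. The fit was tested on simulated data.

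Named were the 6 genes in every generation, up to 4 called genes per list by smallest p, HSD17B10, HSD17B12 and SRD5A3, the 3 genes most like each member and the closest marker of each list. Some genes that this rule names are not reported here. TCF7L2, GBX2, NR5A1, TTR, MOBP, SIM1, genes with no row and other markers named beside a result were chosen after their values were seen. The members and lists were chosen with earlier results of these data known. Sequences and coordinates of the build were not used here.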

Additional observations from a re-analysis of the deposited data

Results flagged for a closer look

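PGR in the F2 Veh animal SGM29 stood apart from its group, at 48.5 scaled counts against 37.6 to 39.0 in the other 4. It was the 1 value set apart by Dixon's test among 36 combinations of gene and group, where chance gives about 1.8. No difference of fold changes between generations passed for any of the 6 genes, so none is listed.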

How the results depend on the processing

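Of the 18 fold changes (6 genes in 3 generations), 1 passed the adjusted threshold in any limma fit, PRLR in F1. With no scaling its value was 0.95, with or without the removed direction as a covariate, with quantile normalization 0.78 and with that covariate alone 0.89, and none of these passed. The other scalings, pseudocounts, filters and variance fits kept its call. The exact permutation tests of single genes, which are not adjusted over genes, passed for ESR1 (0.52) and PGR (0.52) in F2, where limma did not. With all animals kept, signs turned for 2 of the 18: SRD5A1 in F1 was -0.012 with quantile normalization, and CYP19A1 in F2 was -0.063 unscaled, with or without the covariates, and -0.044 with quantile normalization.

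Without one animal at a time, the F1 values ran from -0.37 to 0.17 for ESR1, -0.19 to 0.088 for ESR2, 0.77 to 1.07 for PRLR, -0.82 to 0.24 for CYP19A1 and -0.045 to 0.072 for SRD5A1. Those of F2 ran from -0.13 to 0.24 for PRLR and -0.25 to 0.13 for CYP19A1. Those of F3 ran from -0.096 to 0.054 for ESR1, -0.48 to 0.022 for CYP19A1, 0.13 to 0.39 for PRLR, 0.040 to 0.28 for ESR2 and -0.12 to -0.011 for PGR. In 10 of the 18, PRLR in F1 included, no fit turned the sign.

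Over all genes, F1 called 2058, but 78 unscaled, 1345 with the removed direction as a covariate and 54 with both, and 904 (without Veh SGM11) to 2021 with one animal left out. F2 called 0, 42 with quantile normalization and 0 to 2 with one animal left out (2 without Veh SGM23 or Veh SGM28). F3 called 5, 11 without trend, 1 with the removed directions as covariates, scaled or not, 0 in the first batch, 3 with batch as a covariate, and 1 to 17 (without sGC SGM18) with one animal left out. Unscaled, fold changes differed between F1 and F2 for 873 genes, F1 and F3 for 358, and F2 and F3 for 1, beside 1635, 2013 and 18, and the SRD5A1 difference between F2 and F3 turned to -0.037. The cause of these shifts was not tested. No paired analysis was possible because the groups compared share fewer than 2 replicate numbers. The number of animals limits the precision.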
